A study of Mus musculus with 12 samples.

Results

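The genes described here are 10 listed ETS transcription factors, Elf1, Elf2, Elf3, Elf4, Elf5, Ehf, Spdef, Ets1, Ets2 and Elk3. They were taken by symbol and lie outside the PEA3 subfamily (Etv1, Etv4 and Etv5). Other ETS factors outside that subfamily, such as Etv6 and Erf, are not on the list, which was chosen with earlier results of these data known. All 10 were found among the 55536 gene identifiers of the count tables, and all 10 were among the 19213 genes left by the filter on low counts. ETS factors share a DNA-binding domain that recognises a GGAA core, and the kinase ERK phosphorylates several of them. Elf3, Ehf and Elf5 are the epithelium-specific branch of the family, known for the differentiation of glandular and barrier epithelia, and Spdef is known for secretory cells such as goblet cells. Elf1, Elf2 and Elf4 are best known from blood cells, Ets1 from lymphocytes and endothelium. Ets2 is the close relative of Ets1, and Elk3 is a ternary complex factor, which binds DNA with serum response factor.

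RNA came from the 3 most proximal segments of the mouse epididymis, the duct that receives sperm and fluid from the testis. In groups L1, L2 and L3 (segments 1, 2 and 3) the efferent ducts, which join testis and epididymis, had been tied off with suture. Groups C1, C2 and C3 were the same segments without ligation, and no sham operation is named; all mice were labelled WT, while the sources used here do not give strain, age or time after ligation. Each group had 2 libraries, each a pool of 2 mice, and each of the sequencing batches 3017 and 3097 held 1 library of every group. P-values therefore measure the spread between such pools that is left after batch differences, estimated jointly over the 6 groups.

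Libraries held 30.5 to 42.3 M counts. Levels are CPM, counts divided by library size, after TMM scaling, which adjusts for differences in RNA composition, and in each pair of values the batch 3017 library comes first. Means carry SD (n = 2) and log2 fold changes carry SE. A gene is called at an adjusted p under 0.05 in edgeR's quasi-likelihood test, fitted to all genes with batch as a block. The caput gene Gpx5 stood between 26632 and 62631 CPM in every library. Lcn8, a lipocalin gene of segment 1, stood at 15.5 and 12.9 CPM in L1, 13694 and 14229 CPM in C1 and 94.6 and 102 CPM in C3. The C2 libraries stood apart from each other, with 3319.6 CPM of Lcn8 in batch 3017 and 209.9 CPM in batch 3097. Counts of called members in comparisons that include C2 are given with and without each of these libraries. Segment 2 counts for the other gene lists are given only with both.

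In segment 1, Elf5, Spdef, Elf3, Ehf and Ets2 rose after ligation, and Ets1 and Elf2 fell. Of the 10 members 7 were called, against 48.7% of all genes tested. Those that rose were 5 of 10, against 24.4% of all genes, and those that fell were 2 of 10, against 24.4%. The median log2 fold change was 0.46 over the members and 0.03 over all genes. Of 14 tested ETS genes outside this list, 0 rose and 7 fell (median -0.51), with Etv1, Etv4 and Etv5 among those that fell. The shares of members are therefore not those of the ETS family. Between L1 and C1 the libraries of 9 of 10 members did not overlap, against 73.0% of all genes; between L2 and C2 this held for 5 of 10, against 49.3%, and between L3 and C3 for 5 of 10, against 43.3%. The rise ranged from 5.54 ± 0.70 for Elf5 to 0.62 ± 0.12 for Ets2 on the log2 scale. In whole tissue, fewer cells of a type and less RNA per cell cannot be told apart.

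Bases before the starts of Elf3, Elf5 and Spdef are shown because these genes had the 3 largest rises, with GGAA, or TTCC where the core lies on the other strand, in capitals. They are RefSeq promoter windows on GRCm38.p6, cut to the bases that lie in no annotated exon and written along each gene. Elf3 is at chr1:135258569-135258722 (minus strand), Elf5 at chr2:103423818-103424061 (plus strand, before the downstream of its 2 listed starts) and Spdef at chr17:27728956-27729201 (minus strand).
Elf3: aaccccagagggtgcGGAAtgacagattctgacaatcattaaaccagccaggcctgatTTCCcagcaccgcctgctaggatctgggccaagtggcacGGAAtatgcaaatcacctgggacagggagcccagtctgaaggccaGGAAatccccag
Elf5: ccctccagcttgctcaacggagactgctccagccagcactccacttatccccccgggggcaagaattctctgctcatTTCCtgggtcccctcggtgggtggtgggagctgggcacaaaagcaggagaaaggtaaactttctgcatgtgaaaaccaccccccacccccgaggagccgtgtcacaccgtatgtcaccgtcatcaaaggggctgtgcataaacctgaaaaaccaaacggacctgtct
Spdef: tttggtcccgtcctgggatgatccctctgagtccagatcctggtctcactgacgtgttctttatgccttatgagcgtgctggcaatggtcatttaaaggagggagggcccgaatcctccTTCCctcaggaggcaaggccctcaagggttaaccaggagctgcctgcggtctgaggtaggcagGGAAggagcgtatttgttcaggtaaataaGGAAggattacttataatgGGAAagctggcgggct
These stretches held 4 GGAA matches for Elf3, 1 for Elf5 and 4 for Spdef, counting both strands. Of 32851 promoter windows of 250 bases, 93.4% held at least 1 match, with a median of 3. The longer ETS motif CCGGAA, which contains GGAA, had 0 matches on either strand of the whole windows of these starts and was present in 12% of all windows. The AP-1 motif TGANTCA also had 0 matches there and was present in 6.75% of all windows. The TATA motif TATAAA had 0 matches as well and was present in 12.4%. The promoter table held 8 of the 10 members.

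Elf3 (ENSMUSG00000003051, chromosome 1, 135253575 to 135258568, minus strand, GRCm38 as for all coordinates) encodes an epithelial factor known from gut and airway. Per kb of exon it was the most abundant member in all 6 groups, from 48.9 CPM per kb in C1 to 254 CPM per kb in L2. In segment 1 it stood at 629.7 and 466 CPM in L1, against 108 and 109 CPM in C1. Both L1 libraries were above both C1 libraries. The log2 fold change was 2.35 ± 0.37 (adjusted p = 0.00222), and the within-batch log2 ratios of L1 to C1, on CPM plus 0.5, were 2.53 and 2.10. In segment 2 it stood at 543 and 583 CPM in L2, against 156 and 377 CPM in C2. These groups did not overlap, but the C2 libraries differed 2.42-fold, and the difference was not called (1.11 ± 0.36, adjusted p = 0.103). In segment 3 it stood at 465 and 473 CPM in L3, against 407 and 431 CPM in C3, also not called (0.17 ± 0.35, adjusted p = 0.856). An antisense gene, Gm26642, shares 162 exon bases with Elf3, and had 17 to 200 counts per library, against 3645 to 26993 for Elf3.

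Ehf (ENSMUSG00000012350, chromosome 2, 103263433 to 103303278, minus strand) encodes the ETS homologous factor of glandular epithelia. It stood at 269 and 291 CPM in L1, against 106 and 128 CPM in C1. The groups were far apart, with a log2 fold change of 1.27 ± 0.14 (adjusted p = 0.000125) and within-batch ratios of 1.34 and 1.19. In segment 2 it stood at 259 and 266 CPM in L2, against 159 and 250.1 CPM in C2 (0.38 ± 0.14, adjusted p = 0.118). The C2 library of batch 3097 lay just under the L2 libraries, and that of batch 3017 well under them. In segment 3 it stood at 253 and 261 CPM in L3, against 279 and 291 CPM in C3, where both L3 libraries were lower but the difference was not called (-0.15 ± 0.14, adjusted p = 0.643). Per kb of exon Ehf came next after Elf3 in every group.

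Elf5 (ENSMUSG00000027186, chromosome 2, 103411688 to 103450989, plus strand), known for alveolar differentiation in the mammary gland, was near its detection limit in control segment 1. It had 132 and 113 counts in L1, against 2 and 3 counts in C1, or 3.08 and 3.16 CPM against 0.0501 and 0.0894 CPM. A count of 3 was worth 0.0709 to 0.0984 CPM before TMM scaling, so C1 stood at about this floor. The ratio of summed counts, L1 to C1, was 45.8 with a 95% exact interval of 19.4 to 142 that covers counting error only. The fitted log2 fold change was 5.54 ± 0.70 (adjusted p = 0.000392) and depends on the prior count. In segment 2 it stood at 4.46 and 7.60 CPM in L2, against 0.619 and 2.77 CPM in C2. Both L2 libraries were above both C2 libraries, and Elf5 was called (1.95 ± 0.45, adjusted p = 0.0326). In segment 3 it stood at 10.01 and 15.4 CPM in L3, against 4.83 and 15.9 CPM in C3, where the groups overlapped and the difference was not called (0.45 ± 0.39, adjusted p = 0.605).

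Spdef (ENSMUSG00000024215, chromosome 17, 27714352 to 27728955, minus strand), known for mucus-secreting cells of gut and airway, had 206 and 125 counts in L1, against 12 and 19 counts in C1. In CPM it stood at 4.81 and 3.50 in L1, against 0.300 and 0.566 in C1. The ratio of summed counts was 9.99 (95% exact interval 6.90 to 14.9, counting error only), and the log2 fold change was 3.30 ± 0.34 (adjusted p = 7.22e-05). Both L1 libraries lay above both C1 libraries. In segment 2 Spdef stood at 4.30 and 4.07 CPM in L2, against 1.69 and 2.45 CPM in C2; the groups did not overlap and the difference was just short of a call (1.03 ± 0.29, adjusted p = 0.0523). In segment 3 it stood at 4.45 and 5.23 CPM in L3, against 3.24 and 4.40 CPM in C3, again without overlap and not called (0.35 ± 0.27, adjusted p = 0.56).

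**Figure D1:**
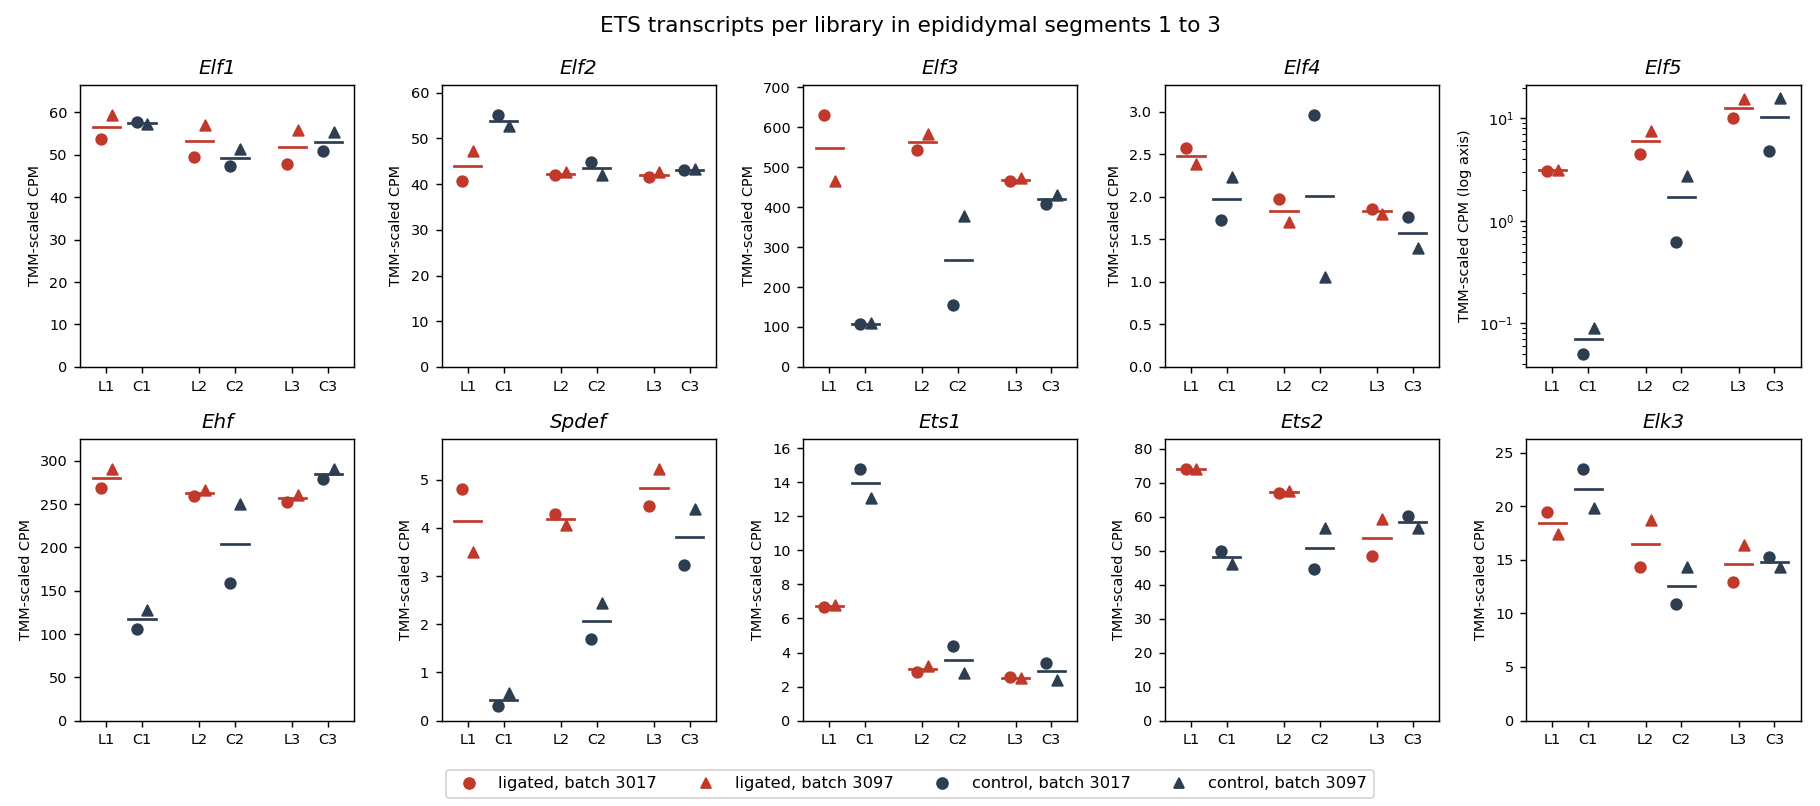
TMM-scaled CPM of each ETS gene (y axis, from 0 and linear but logarithmic for Elf5) in ligated (L1 to L3) and control (C1 to C3) libraries of segments 1 to 3; points are single libraries by batch and lines the mean of 2 libraries. Elf3 stands at 629.7 and 466 CPM in L1 and at 108 and 109 CPM in C1, while Elf1 stays between 47.3 and 59.3 CPM throughout.

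Some markers of several cell types, epithelial and other, were also called in segment 1, where 24.4% of all genes were called higher and 24.4% lower. Clear and narrow cells acidify the lumen, and of their 6 markers 5 rose in segment 1, and their summed level was 1081 and 976 CPM in L1, against 214 and 298 CPM in C1. Most of that sum in L1 was Rhcg, an ammonium transporter gene, at 739 and 654 CPM in L1, against 64.2 and 121 CPM in C1. Atp6v0d2, a proton pump subunit gene, was not called higher, at 97.7 and 108 CPM in L1, against 125 and 133 CPM in C1. The summed level of the 6 markers was 656 and 972 CPM in C2 and 1062 and 1153 CPM in C3, so the sum was lowest in C1. Rhcg stood at 423 and 679 CPM in C2 and 705 and 738 CPM in C3. Atp6v0d2 was not lowest in C1, with 60.7 and 76.2 CPM in C2 and 87.7 and 127 CPM in C3. Slc26a4 was at 0 in the C1 library of batch 3017. Of 5 general epithelial markers 1 rose, Cldn3, and their sum was 2238 and 2117 CPM in L1, against 2116 and 1918 CPM in C1. Of 4 basal cell markers Krt5 and Krt14 rose while Trp63 and Itga6 fell. Ciliated cell markers rose in 4 of 5, smooth muscle markers in 5 of 5 and macrophage and dendritic cell markers in 3 of 8, and of 5 fibroblast markers 4 rose and Pdgfra fell. Of 6 principal cell and segment 1 markers 4 fell, namely Adam7, Cst8, Lcn8 and Ros1, while Gpx5 and Lcn5 were not called. Lcn5 was higher in both L1 libraries, at 545 and 388 CPM in L1, against 52.9 and 87.2 CPM in C1. Gpx5 stood at 39365 and 34141 CPM in L1, against 26632 and 36425 CPM in C1. Of 3 blood markers 2 fell, and of 5 sperm and germ cell markers 5 fell. These 5 sperm and germ cell markers also fell in segments 2 and 3, where 9.86% and 1.72% of all genes were called. Their median log2 fold change was -4.59 in segment 1, -8.68 in segment 2 and -8.46 in segment 3. The part of these cells in the ETS differences was not tested.

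Among control segments Elf3, Ehf, Elf5 and Spdef were lowest in segment 1. These comparisons share C1 and C2 libraries with the ligation comparisons. From C1 through C2 to C3, Elf3 averaged 108 ± 0.209, 266 ± 157 and 419 ± 16.6 CPM, and Ehf 117 ± 15.5, 204 ± 64.7 and 285 ± 8.35 CPM. In the same order Elf5 averaged 0.0697 ± 0.0278, 1.69 ± 1.52 and 10.4 ± 7.83 CPM, and Spdef 0.433 ± 0.188, 2.07 ± 0.538 and 3.82 ± 0.820 CPM. Among the control groups the SD was widest in C2 for Elf3 and Ehf and in C3 for Elf5, while the ratio of the 2 libraries was widest in C2 for Elf5 as well (4.47, against 3.29 in C3). Between C1 and C3, 7 of 10 members were called, against 51.2% of all genes, 3 higher in C1 (against 25.0%) and 4 lower (against 26.2%). The 4 lower were Elf5 (-7.04 ± 0.67, adjusted p = 8.96e-05), Spdef (-3.15 ± 0.34, adjusted p = 7.88e-05), Elf3 (-1.95 ± 0.37, adjusted p = 0.00441) and Ehf (-1.29 ± 0.14, adjusted p = 9.97e-05). Summed Elf5 counts were 5 in C1 and 774 in C3, a ratio of 0.00643 (95% exact interval 0.00208 to 0.0151, counting error only).

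Between C1 and C2, 8 of 10 members were called, against 43.2% of all genes, 4 higher in C1 (against 21.1%) and 4 lower (against 22.1%). The lower genes were again Elf5 (-4.43 ± 0.75, adjusted p = 0.00231), Spdef (-2.27 ± 0.35, adjusted p = 0.000843), Elf3 (-1.26 ± 0.36, adjusted p = 0.0294) and Ehf (-0.79 ± 0.14, adjusted p = 0.00207). The Elf3 call was lost in 8 of the 12 fits that left out a library, all but those without L1 of batch 3017, L1 of batch 3097, C2 of batch 3017 and C2 of batch 3097, including those without either C1 library (adjusted p = 0.11 and 0.15), and was not made with no filter on low counts (0.09) or with only the groups compared in the fit (0.13). Its value moved to -1.81 without the C2 library of batch 3017 and to -0.48 without that of batch 3097. Without the C2 library of batch 3017, 7 members were called in this comparison, against 40.9% of all genes, and without that of batch 3097 6, against 28.9%. Between C2 and C3, 1 of 10 was called, against 1.79% of all genes. It was Elf5 (-2.60 ± 0.45, adjusted p = 0.038), and the call was lost in 9 of the 12 such fits, all but those without L1 of batch 3017, L1 of batch 3097 and C2 of batch 3097, with an adjusted p of 0.11 without the C2 library of batch 3017 and 0.21 without the C3 library of batch 3097, and was not made without the batch block (0.15). Without the C2 library of batch 3017, 0 members were called by edgeR between C2 and C3, against 0.284% of all genes, and without that of batch 3097 3 members, Elf3, Elf5 and Ehf, against 11.8%. The ratio of the C2 libraries, batch 3097 over batch 3017, was 4.47 for Elf5, 2.42 for Elf3, 1.58 for Ehf and 1.45 for Spdef, and the library of batch 3017 had more of the segment 1 genes Lcn8, Cst8 (1008 and 107 CPM in batches 3017 and 3097) and Ros1 (394 and 215 CPM in the same order).

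**Figure D2:**
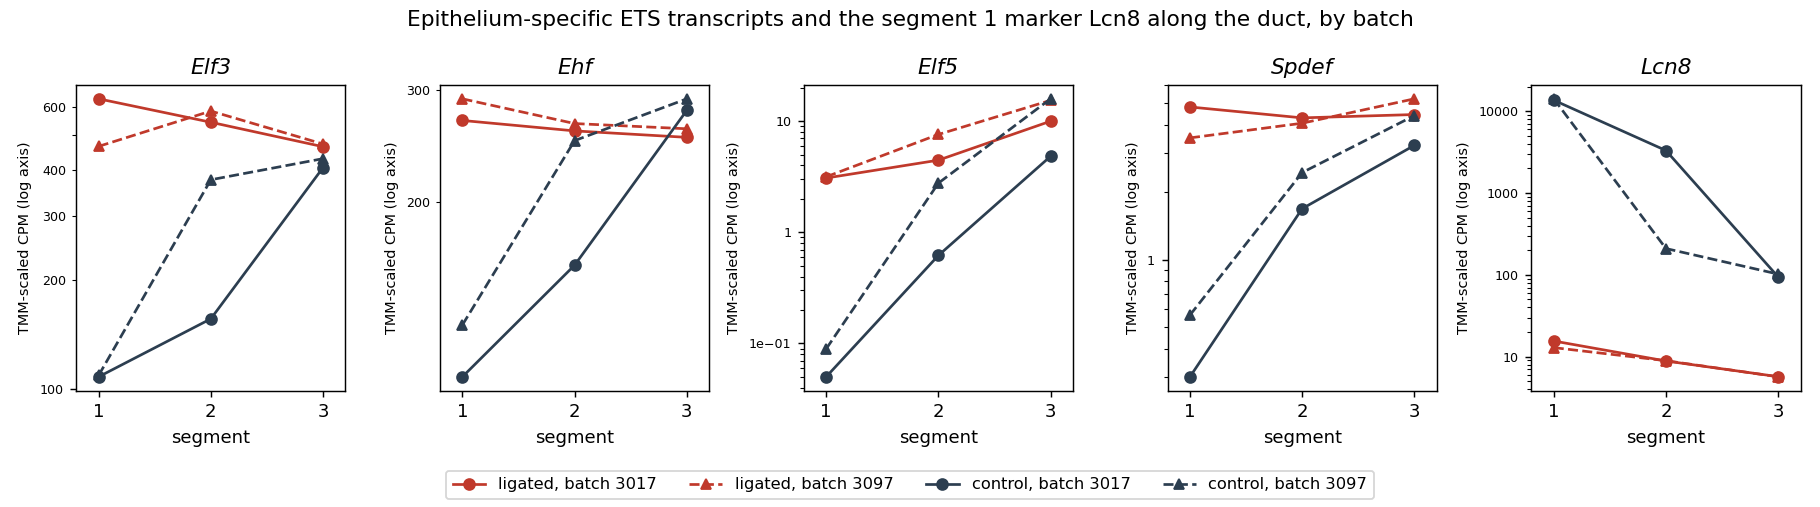
TMM-scaled CPM (log axis) of Elf3, Ehf, Elf5, Spdef and the segment 1 gene Lcn8 in segments 1, 2 and 3 (x axis), with a line for each batch of ligated and of control tissue. In control tissue the 4 ETS genes are lowest in segment 1, where Lcn8 is highest, and the C2 libraries differ, with Lcn8 at 3319.6 and 209.9 CPM.

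Among ligated segments Elf3, Ehf and Spdef were not called in any pair. From L1 through L2 to L3, Elf3 averaged 548 ± 116, 563 ± 28.3 and 469 ± 5.49 CPM, Ehf 280.2 ± 15.9, 262 ± 4.54 and 257 ± 5.84 CPM, and Spdef 4.15 ± 0.924, 4.18 ± 0.167 and 4.84 ± 0.552 CPM. Elf5 averaged 3.12 ± 0.0591, 6.03 ± 2.22 and 12.7 ± 3.83 CPM and was lower in L1 than in L3 (-1.95 ± 0.41, adjusted p = 0.0352), a call lost in 7 of the 12 fits that left out a library, all but those without L1 of batch 3017, C2 of batch 3017, C2 of batch 3097, C3 of batch 3017 and C3 of batch 3097, with adjusted p up to 0.27, and not made without the batch block (0.16) or with no filter on low counts (0.062). Called members were 2 of 10 between L1 and L3, Elf5 and Ets1, against 5.80% of all genes, and 1 of 10 between L1 and L2, Ets1, against 1.30%. Between L2 and L3 edgeR called 0 of 10 members, against 0.00% of all genes; Elf5 and Ets2, 2 members, had an unadjusted p under 0.05, and DESeq2 called 0.

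The ligation effects of the segments were compared as differences of log2 fold changes. Against segment 3, the value in segment 1 was larger for Elf5 by 5.09 ± 0.84 (adjusted p = 0.00316), Spdef by 2.95 ± 0.44 (0.00127), Elf3 by 2.18 ± 0.50 (0.0184), Ehf by 1.41 ± 0.20 (0.00111) and Ets2 by 0.74 ± 0.17 (0.00914). These were 5 of 10 members, against 30.7% of all genes, and all 5 were higher in segment 1 (against 16.1%). The Elf3 difference lost its call in 7 of the 12 fits that left out a library, all but those without L1 of batch 3097, L2 of batch 3017, L2 of batch 3097, C2 of batch 3017 and C2 of batch 3097, with adjusted p up to 0.081, and was not called with no filter on low counts (0.061). Against segment 2, the value in segment 1 was larger for Elf5 by 3.59 ± 0.91 (0.0292), Spdef by 2.27 ± 0.44 (0.00834) and Ehf by 0.88 ± 0.20 (0.016), 3 of 10 members against 18.5% of all genes (10.3% in that direction). Without the C1 library of batch 3017 all 3 lost the call (adjusted p = 0.11, 0.051 and 0.075), the Elf5 difference was lost in 6 of the 12 such fits (those without L1 of batch 3017, L2 of batch 3017, L2 of batch 3097, C1 of batch 3017, C1 of batch 3097 and C2 of batch 3097) and the Ehf difference in 3 of the 12 (those without L1 of batch 3017, L2 of batch 3097 and C1 of batch 3017), and the Elf5 difference was not called without the batch block (0.13) or with no filter on low counts (0.061). Without the C2 library of batch 3017, 5 members were called in these differences, against 23.2% of all genes, and without that of batch 3097 2, against 14.7%. Between segments 2 and 3 edgeR called 0 of 10 members, against 0.00% of all genes; Elf5, Ehf and Ets2, 3 members, had an unadjusted p under 0.05, and DESeq2 called 0. Without the C2 library of batch 3097 edgeR called 3 members, Elf3, Ehf and Ets2, against 5.56% of all genes, and without that of batch 3017 0 members, against 0.00498% (1 gene).

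In segment 2, 1 of 10 members was called, Elf5, against 9.86% of all genes, a share near that background; of all genes 2.87% were called higher in L2. Without the C2 library of batch 3097, 5 members were called higher in L2, against 8.72% of all genes (20.1% in either direction), among them Elf3 (1.89, adjusted p = 7.1e-05), Ehf (0.69, adjusted p = 0.0019), Spdef (1.27, adjusted p = 0.035) and Ets2 (0.59, adjusted p = 0.0083). Without that of batch 3017 edgeR called 0 members, against 3.24% of all genes. The values were then 0.56 for Elf3 (adjusted p = 0.1), 0.13 for Ehf (0.64), 0.84 for Spdef (0.29), 0.27 for Ets2 (0.34) and 1.48 for Elf5 (0.16). The Elf5 call was lost in 5 of the 12 fits that left out a library, those without L2 of batch 3017, L2 of batch 3097, C1 of batch 3017, C1 of batch 3097 and C2 of batch 3017, and was not made without the batch block (adjusted p = 0.18), with no filter on low counts (0.061) or with only the groups compared (0.13). In segment 3 edgeR called 0 of 10 members, against 1.72% of all genes; 0 had an unadjusted p under 0.05 and DESeq2 called 0.

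**Figure D3:**
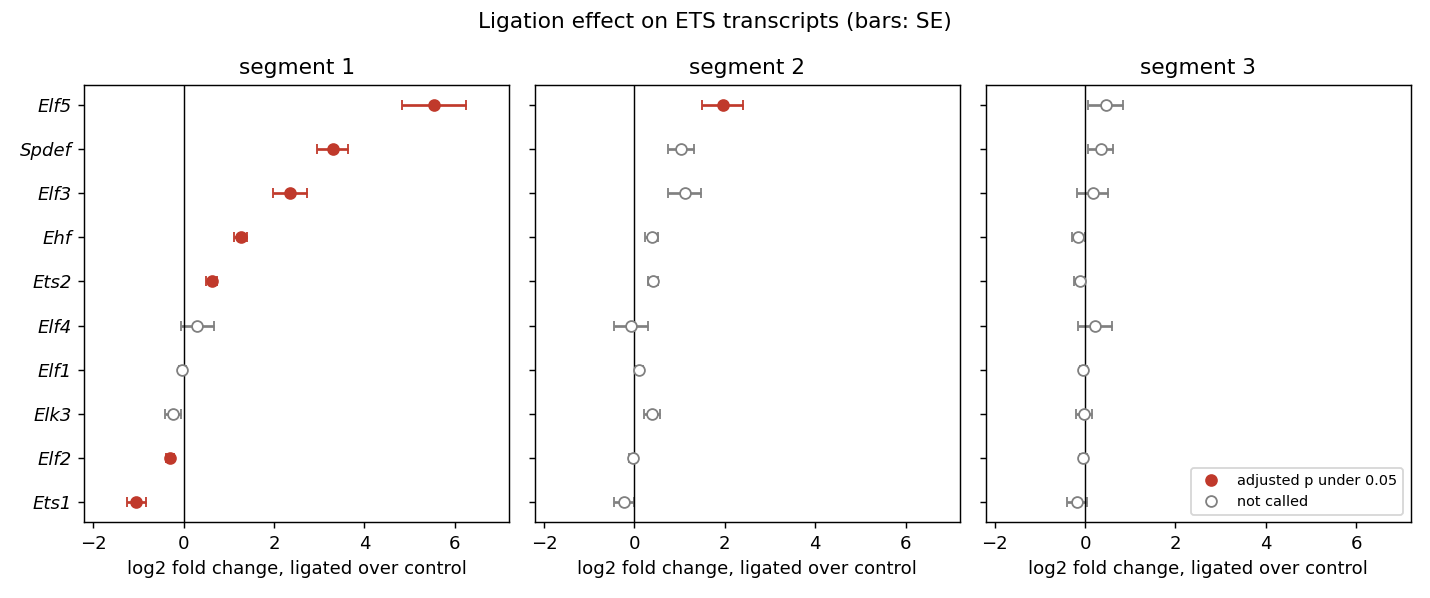
Log2 fold change of ligated over control tissue (x axis, bars are SE) for each ETS gene in segments 1, 2 and 3, with genes at an adjusted p under 0.05 set apart by their marker. Elf5 has the highest value in segments 1 and 2, at 5.54 and 1.95, and 0 of 10 genes passed in segment 3.

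Ets1 (ENSMUSG00000032035, chromosome 9, 32636221 to 32757820, plus strand) fell in segment 1, where it was highest in control tissue. It stood at 6.70 and 6.77 CPM in L1, against 14.8 and 13.1 CPM in C1. Both L1 libraries were below both C1 libraries, with a log2 fold change of -1.05 ± 0.20 (adjusted p = 0.00242) and within-batch ratios of -1.09 and -0.90. It was low in both conditions of segment 2, at 2.85 and 3.19 CPM in L2, against 4.37 and 2.80 CPM in C2, and of segment 3, at 2.54 and 2.50 CPM in L3, against 3.38 and 2.40 CPM in C3, where groups overlapped and neither difference was called (-0.22 ± 0.22, adjusted p = 0.547, and -0.18 ± 0.22, adjusted p = 0.722). C1 was higher in Ets1 than C2 (1.97 ± 0.22, adjusted p = 0.000151) and than C3 (2.28 ± 0.22, adjusted p = 4.38e-05). L1 was higher than L2 (1.15 ± 0.21, adjusted p = 0.0393) and than L3 (1.42 ± 0.22, adjusted p = 0.0101), calls lost in 10 of the 12 (all but those without C2 of batch 3017 and C2 of batch 3097) and 3 of the 12 (those without L1 of batch 3097, L3 of batch 3017 and L3 of batch 3097) fits that left out a library. Without the L1 library of batch 3097 the adjusted p was 0.38 and 0.11, and the call against L2 was not made without the batch block (0.07) or with a minimum count of 50 (0.061). The fall in segment 1 did not differ by a call from segment 2 (-0.82 ± 0.30, adjusted p = 0.0858) or segment 3 (-0.86 ± 0.30, adjusted p = 0.0545). The difference from segment 3 was called by DESeq2 (adjusted p = 0.0485), by edgeR with only the groups compared (0.0319) and by edgeR without the C2 library of batch 3017 (0.0272) or 3097 (0.0264). That from segment 2 was called without the C2 library of batch 3017 (0.024).

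Markers of the cells that Ets1 is known from also moved. Of 10 endothelial markers 7 fell and 1, Cldn5, rose in segment 1, against 24.4% of all genes lower and 24.4% higher. Their sum was 50.1 and 61.9 CPM in L1, against 133 and 129 CPM in C1, and 23.8 to 36.0 CPM in all libraries of segments 2 and 3. Of 9 T and NK cell markers 6 were tested, of which Klrb1c fell, at 8.75 and 12.3 CPM in L1 against 554 and 424 CPM in C1, and Cd3g and Cd8a rose. The other 8 markers were at or below 2.75 CPM in every library, with Nkg7 at 0 in the C1 library of batch 3017. The 4 B cell markers summed to at most 0.616 CPM. The part of these cells in the Ets1 difference was not tested.

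Ets2 (ENSMUSG00000022895, chromosome 16, 95702075 to 95721051, plus strand), like Ets1 a substrate of ERK, stood at 74.1 and 73.98 CPM in L1, against 50.02 and 46.2 CPM in C1. Both L1 libraries were above both C1 libraries (0.62 ± 0.12, adjusted p = 0.00214). In segment 2 it stood at 66.95 and 67.5 CPM in L2, against 44.7 and 56.6 CPM in C2, without overlap and not called (0.41 ± 0.12, adjusted p = 0.0585). In segment 3 it stood at 48.4 and 59.3 CPM in L3, against 60.2 and 56.6 CPM in C3, with overlap (-0.12 ± 0.12, adjusted p = 0.644). Ets2 was not called between any pair of control segments in the fit of all 12 libraries with TMM. It was called lower in C1 than in C3 with library totals alone (adjusted p = 0.0417), with only the groups compared (0.0251) and without the C2 library of batch 3017 (0.0441) or 3097 (0.0454).

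Elk3 (ENSMUSG00000008398, chromosome 10, 93247414 to 93311135, minus strand), which can repress its targets, stood at 19.5 and 17.4 CPM in L1, against 23.5 and 19.8 CPM in C1. Both L1 libraries were below both C1 libraries, and the difference was not called (-0.23 ± 0.18, adjusted p = 0.301). It stood at 14.3 and 18.7 CPM in L2, against 10.9 and 14.3 CPM in C2 (0.39 ± 0.18, adjusted p = 0.194), and at 12.9 and 16.4 CPM in L3, against 15.3 and 14.3 CPM in C3 (-0.03 ± 0.18, adjusted p = 0.966). Among control segments Elk3 was higher in C1 than in C2 (0.79 ± 0.18, adjusted p = 0.00659) and than in C3 (0.55 ± 0.18, adjusted p = 0.0259). Neither call held without the C1 library of batch 3017 (adjusted p = 0.078 and 0.25), and the call against C3 was also lost without either C3 library (0.054 and 0.15) and with library totals alone (0.0505). On the opposite strand Cdk17 shares 316 exon bases with Elk3 and had 537 to 1193 counts per library, against 316 to 937 for Elk3, so reads of the pair could be confused if strand was not used.

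Elf1 (ENSMUSG00000036461, chromosome 14, 79481194 to 79582494, plus strand) varied least, between 47.3 and 59.3 CPM over the 12 libraries. It stood at 53.8 and 59.3 CPM in L1, against 57.6 and 57.2 CPM in C1 (-0.02 ± 0.08, adjusted p = 0.818), and the segment 1 groups overlapped. In segment 2 it stood at 49.4 and 57.02 CPM in L2, against 47.3 and 51.3 CPM in C2 (0.11 ± 0.08, adjusted p = 0.399), and in segment 3 at 47.8 and 55.9 CPM in L3, against 50.8 and 55.3 CPM in C3 (-0.04 ± 0.08, adjusted p = 0.862). C1 was higher than C2 (0.22 ± 0.08, adjusted p = 0.0436), a call lost in 10 of the 12 fits that left out a library, all but those without C1 of batch 3097 and C3 of batch 3097. It was also lost with library totals alone, with no filter on low counts, with a minimum count of 50, without the batch block and with only the groups compared (adjusted p from 0.058 to 0.18). On the opposite strand Wbp4 shares 327 exon bases with Elf1 and had 1300 to 2398 counts per library, against 1373 to 2342 for Elf1, with the same uncertainty.

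Elf2 (ENSMUSG00000037174, chromosome 3, 51252720 to 51340663, minus strand) fell in segment 1, at 40.8 and 47.2 CPM in L1, against 55.1 and 52.7 CPM in C1 (-0.29 ± 0.09, adjusted p = 0.0175). L1 was below C1 in both batches. The call was lost with scaling by library totals alone (-0.09, adjusted p = 0.43), without the L1 library of batch 3017 (0.19) and without the C1 library of batch 3017 (0.12). In segment 2 Elf2 stood at 41.96 and 42.6 CPM in L2, against 44.8 and 42.1 CPM in C2, and in segment 3 at 41.5 and 42.6 CPM in L3, against 43 and 43.3 CPM in C3, neither called. C1 was also higher than C2 (0.31 ± 0.09, adjusted p = 0.0165) and than C3 (0.32 ± 0.09, adjusted p = 0.0109), and without the C1 library of batch 3017 these had adjusted p of 0.12 and 0.085; the call against C2 was also lost without the C2 library of batch 3097 (0.084) and with only the groups compared (0.083).

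Elf4 (ENSMUSG00000031103, chromosome X, 48411046 to 48463132, minus strand), known for quiescence of T cells, had 33 to 110 counts per library and was not called in any comparison. It stood at 2.57 and 2.38 CPM in L1, against 1.73 and 2.23 CPM in C1 (0.31 ± 0.37, adjusted p = 0.519), at 1.97 and 1.70 CPM in L2, against 2.96 and 1.06 CPM in C2 (-0.08 ± 0.38, adjusted p = 0.912), and at 1.86 and 1.80 CPM in L3, against 1.76 and 1.40 CPM in C3 (0.22 ± 0.37, adjusted p = 0.81). The C2 libraries differed 2.79-fold, more than any pair of group means.

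Of 17 other ETS genes listed, 14 were tested. By edgeR 0 rose and 7 fell in segment 1 (median log2 fold change -0.51), against 24.4% of all genes higher and 24.4% lower. In segment 2, 0 rose and 2 fell, against 9.86% of all genes in either direction and 2.87% higher. In segment 3, 0 rose or fell, against 1.72%. Those that fell in segment 1 were Elk4, Erf, Etv1, Etv4, Etv5, Etv6 and Gabpa. Etv6, a repressor, averaged 31.9 ± 2.13 CPM in L1 and 60.02 ± 11.01 CPM in C1 (-0.90 ± 0.11, adjusted p = 0.00015). Erf, a repressor inhibited by ERK, averaged 68.3 ± 8.19 CPM in L1 and 229.6 ± 29.5 CPM in C1 (-1.75 ± 0.20, adjusted p = 0.00025). Elk4, a ternary complex factor like Elk3, averaged 30.5 ± 5.11 CPM in L1 and 72.1 ± 23.6 CPM in C1 (-1.21 ± 0.16, adjusted p = 0.00028). Of the PEA3 genes, Etv4 stood at 0.208 ± 0.135 CPM in L1 and 199.5 ± 48.4 CPM in C1 (-9.87 ± 0.82, adjusted p = 0.00024) and Etv5 at 1.81 ± 0.214 CPM in L1 and 888 ± 110.2 CPM in C1 (-8.97 ± 1.10, adjusted p = 0.0013).

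Of 10 listed partners and regulators of ETS factors, 3 rose and 4 fell in segment 1 (median -0.19), and 1 rose and 3 fell in segment 2. Over all genes, 24.4% were called higher and 24.4% lower in segment 1. In segment 2, 9.86% were called in either direction and 2.87% higher, with 551 genes higher and 1344 lower. Runx1, which binds DNA with Ets1, averaged 25.8 ± 5.45 CPM in L1 and 127 ± 38 CPM in C1 (-2.28 ± 0.19, adjusted p = 4.5e-05). Its cofactor gene Cbfb averaged 36.1 ± 0.287 CPM in L1 and 112 ± 3.96 CPM in C1 (-1.63 ± 0.09, adjusted p = 6.4e-06). Stat5a, which like Elf5 serves alveolar differentiation in the mammary gland, averaged 39.8 ± 7.80 CPM in L1 and 15.6 ± 1.11 CPM in C1 (1.36 ± 0.18, adjusted p = 0.00035). Of 13 listed epithelial regulators and adhesion genes 11 were tested. Beside the same shares over all genes, 5 of these rose and 3 fell in segment 1 (median 0.30), and 3 rose and 0 fell in segment 2. Ovol1, a zinc finger gene of epithelia, averaged 6.38 ± 1.03 CPM in L1 and 2.33 ± 0.310 CPM in C1 (1.45 ± 0.18, adjusted p = 0.00019), and in segment 2 it rose as well (1.11 ± 0.18, adjusted p = 0.0068). The splicing regulator Esrp1 averaged 92.4 ± 0.0954 CPM in L1 and 168 ± 5.64 CPM in C1 (-0.86 ± 0.07, adjusted p = 2.4e-05), and Grhl2, of the grainyhead family, 76.04 ± 1.47 CPM in L1 and 148 ± 12.4 CPM in C1 (-0.96 ± 0.12, adjusted p = 0.00025).

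Across the 12 libraries the log2 CPM of Elf3, Ehf, Elf5 and Spdef followed each other, with Pearson's r from 0.90 for Elf3 with Elf5 to 0.95 for Elf3 with Ehf. Elf2 ran against Spdef (r = -0.92) and Ets1 against Elf5 (r = -0.89). These values describe libraries that share groups and batches. The genes compared were the 10528 tested genes averaging 5 CPM or more, leaving out symbols of the Gm-number, Rik and -ps types. Among these, the 3 whose log2 CPM were most like that of Elf5 were Alox5 (0.99), Agpat3 (0.99) and Tmtc4 (0.99), with r in parentheses. For Spdef they were Rnase6 (0.99), Gchfr (0.99), Gnao1 (0.99), and for Ets1 Lamb3 (0.98), AI467606 (0.98), Igfbp3 (0.98). Alox5, the gene of 5-lipoxygenase, averaged 16.9 CPM in L1 and 3.38 CPM in C1, and the laminin gene Lamb3 16.8 CPM in L1 and 29.98 CPM in C1.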

How the data were processed

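The authors deposited whole-number counts for each gene without normalization, 1 table per sequencing batch with columns named by group, and libraries are named here by group and batch. Per the labels' protocols, directional libraries were made from 500 ng of RNA after selection of polyadenylated RNA, each a pool of 2 mice. Per the submitters' processing notes, Trim Galore 0.6.0, cutadapt, FastQC and STAR 2.7.0e were used, on GRCm38. The sources used here do not say how reads were counted, or with which strand setting and annotation, so counts of overlapping and antisense genes are uncertain. All 55536 identifiers matched GENCODE mouse release 21, which gave symbols, coordinates and exon lengths.

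Genes were filtered with filterByExpr (minimum count 10), scaled by TMM and tested in R 4.3.3 with edgeR 4.0.16, which calls limma 3.58.1 (robust quasi-likelihood test, group and batch as terms, all 12 libraries, Benjamini-Hochberg adjustment over 19213 genes). The common biological coefficient of variation was 0.153. SE is the log2 fold change divided by the root of its F value. The fit was tested on simulated data. Totals of 30.5 to 42.3 M counts set a floor of 3 counts at 0.0709 to 0.0984 CPM. Batch is a block because the series' design text puts 1 library of each group in each batch; deviations of same-batch libraries correlated by 0.08 to 0.55 between groups. No label links a replicate number to a batch. The alternatives were DESeq2 1.42.0 and its size factors, library totals, other count filters, no batch block, only the groups compared, and each library left out. The members and lists were chosen with earlier results of these data known. Named beside the 10 members were, from each list, the 3 genes with the smallest adjusted p in L1 against C1 (among other ETS genes, outside Etv1, Etv4 and Etv5), plus Etv4 and Etv5. Markers named singly in the text were chosen after their values were seen. Promoter sequences are from RefSeq, and bases in annotated exons were left out.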

Additional observations from a re-analysis of the deposited data

Results flagged for a closer look

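The effect of ligation differed between segments in 8 results, by edgeR's test of the difference itself. In 3 of 10 members segment 1 differed from segment 2, against 18.5% of all genes, and in 5 of 10 from segment 3, against 30.7%. Under all 19 alternatives 0 of the 3 calls held, and 4 of the 5 did (all but Elf3). Set against segment 2, the log2 fold change of segment 1 was larger by 3.59 ± 0.91 for Elf5, a factor of alveolar epithelium, by 0.88 ± 0.20 for Ehf, of glandular epithelium, and by 2.27 ± 0.44 for Spdef, of secretory cells. Their adjusted p-values were 0.0292 for Elf5, 0.016 for Ehf and 0.00834 for Spdef. Set against segment 3, it was larger by 2.18 ± 0.50 for Elf3, 5.09 ± 0.84 for Elf5, 1.41 ± 0.20 for Ehf, 2.95 ± 0.44 for Spdef and 0.74 ± 0.17 for Ets2. Their adjusted p-values were 0.0184 for Elf3, 0.00316 for Elf5, 0.00111 for Ehf, 0.00127 for Spdef and 0.00914 for Ets2. Both L1 libraries were above both C1 libraries for each of these 5 genes; 73.0% of all genes had no overlap between L1 and C1 in either direction. In C1, Elf5 had 2 and 3 counts, so the size of its fitted differences depends on the prior count.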

How the results depend on the processing

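Of 35 called results of members, 19 kept their call and direction under all 19 alternatives, among them 6 of the 7 calls between L1 and C1 (all but Elf2) and 4 of the 5 differences of effect between segments 1 and 3 (all but Elf3). Calls kept in this way were 5 of 7 for C1 against C3 and 4 of 8 for C1 against C2, but 0 of 1 for L2 against C2, 0 of 1 for C2 against C3, 0 of 1 for L1 against L2, 0 of 2 for L1 against L3 and 0 of 3 for the difference of effect between segments 1 and 2. Of 22 uncalled ligation results, 4 were called under some alternative, each in L2 against C2. Counts were low for Elf5 (2 and 3) and Spdef (12 and 19) in C1, and for Elf4 in every library (33 to 110). Scaling by library totals moved the median log2 fold change of all genes by 0.20 in L1 against C1, with 6505 genes higher and 3130 lower, against 4684 and 4679 with TMM, and by 0.13 in L2 against C2, with 1598 higher and 1071 lower, against 551 and 1344; in the difference of effect between segments 1 and 3 the shift was 0.17, with 4044 higher and 1815 lower, against 3088 and 2819. Only counts that moved by more than a fixed ratio are listed next. Smaller moves are left out, such as 6 in place of 8 members for C1 against C2 with no filter on low counts. Likewise left out is 6 in place of 7 members for L1 against C1 with library totals. With library totals in place of TMM, members called were 3 for L2 against C2. With no filter on low counts, members called were 2 for L2 against C2 (Spdef and Ets2, not Elf5), and all genes called were 1 for the difference of effect between segments 2 and 3. With no replicate block (batch left out of the model), members called were 0 for L2 against C2, 0 for C2 against C3, 0 for L1 against L2, 1 for L1 against L3, and all genes called were 1162 for L2 against C2, 0 for C2 against C3, 112 for L1 against L2, 577 for L1 against L3, 2255 for the difference of effect between segments 1 and 2. With the DESeq2 Wald test, members called were 4 for L2 against C2, beside 2562 of all genes, and 2 for C2 against C3, beside 1587. All genes called by DESeq2 were 649 for L3 against C3, 527 for L1 against L2 and 32 for L2 against L3. They were 1724 for L1 against L3 and 165 for the difference of effect between segments 2 and 3. With only the groups compared in the fit, members called were 0 for L2 against C2, 5 for C1 against C2, 2 for L1 against L2, 2 for L2 against L3, and all genes called were 149 for L2 against C2, 211 for L3 against C3, 5046 for C1 against C2, 162 for C2 against C3, 1194 for L1 against L2, 1080 for L2 against L3. With a minimum count of 50, members called were 0 for L1 against L2, and all genes called were 112 for L1 against L2. Members called ranged over 0 to 5 for L2 against C2, 4 to 7 for C1 against C2, 0 to 3 for C2 against C3, 0 to 1 for L1 against L2, 0 to 3 for L1 against L3, 0 to 5 for the difference of effect between segments 1 and 2, 0 to 3 for the difference of effect between segments 2 and 3 when 1 library was left out. Genes called ranged over 148 to 4066 for L2 against C2, 70 to 501 for L3 against C3, 4749 to 8214 for C1 against C2, 0 to 2384 for C2 against C3, 0 to 626 for L1 against L2, 0 to 8 for L2 against L3, 15 to 2059 for L1 against L3, 1614 to 4655 for the difference of effect between segments 1 and 2, 0 to 1124 for the difference of effect between segments 2 and 3, 3835 to 6722 for the difference of effect between segments 1 and 3 when 1 library was left out. Log2 fold changes with a changed sign, none called on either side, were those of Elf1 in L1 against C1 (0.178 with library totals, -0.098 to 0.063 with 1 library left out), Elf4 in L1 against C1 (-0.061 to 0.734 with 1 library left out), Elf2 in L2 against C2 (0.09 with library totals, -0.090 to 0.035 with 1 library left out), Elf4 in L2 against C2 (0.051 with library totals, 0.009 with only the groups compared, -0.642 to 0.761 with 1 library left out), Ets1 in L2 against C2 (-0.463 to 0.068 with 1 library left out), Elf1 in L3 against C3 (-0.085 to 0.033 with 1 library left out), Ets1 in L3 against C3 (-0.352 to 0.023 with 1 library left out), Ets2 in L3 against C3 (-0.253 to 0.021 with 1 library left out), Elk3 in L3 against C3 (0.007 with library totals, -0.171 to 0.131 with 1 library left out). The causes were not tested. Where an arm was left with 1 library, that library was assumed to vary like the other groups.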

Other observations

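Ehf and Elf5 are neighbours on chromosome 2, on opposite strands, with 108409 bases between them and 3 annotated genes in that gap (A930006I01Rik, BC016548 and Gm37220). Both rose in segment 1, and their log2 CPM had a Pearson's r of 0.93 over the 12 libraries, which share groups and batches. Members on other chromosomes gave similar values. Ehf had an r of 0.95 with Elf3 and with Spdef, and Elf5 had 0.95 with Spdef and 0.90 with Elf3. Gene 4930577N17Rik, on the strand opposite to Elf2, shares 371 exon bases with it and had 16 to 87 counts per library, against 1303 to 2201 for Elf2. Macrophage and dendritic cell markers rose in 3 of 8 in segment 1 (Cd14, Cd68 and Lyz2), against 24.4% of all genes. Cd68, a lysosomal protein gene, stood at 58.3 and 49.4 CPM in L1, against 4.86 and 7.45 CPM in C1. The other 5 were not called, and of these Csf1r and Mrc1, both receptor genes of macrophages, were lower in both L1 libraries, with Csf1r at 26.9 and 32.1 CPM in L1, against 36.8 and 36.8 CPM in C1, and Mrc1 at 5.79 and 7.81 CPM in L1, against 8.79 and 8.85 CPM in C1.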
